A study of Caenorhabditis elegans with 21 samples.

Results

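Sperm-biased 21U loci were studied in small RNA libraries of Caenorhabditis elegans germ cells, 1-cell embryos and whole worms. Levels are given in RPM, here the sense reads at a locus with the 21U sense sum of each library scaled to 1000000. A locus was taken as sperm-biased when its level was at least 100 RPM in sperm and at least 4 times the larger of its oocyte level and a floor of 25 RPM. Of 12120 loci in the deposited 21U table, 430 met this rule (3.55%), or 5.87% of the 7328 loci with a read in sperm or oocytes. The same rule turned round gave 884 oocyte-biased loci, and 124 loci reached 100 RPM in both germ cell types and lay within 2 times of each other. These served as comparison sets. The 430 loci were thus chosen by their sperm and oocyte values, which are given as a description only.

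21U-RNAs are the piRNAs of C. elegans, short germline RNAs that begin with uridine and are carried by the Piwi Argonaute PRG-1. Each is made from its own small transcription unit, mostly within clusters on chromosome IV, then trimmed at its 3' end and methylated. They recognise foreign and germline transcripts by pairing and recruit the machinery that makes secondary small RNAs. Male and female germlines make partly different sets, and the SNAPc subunit paralogue snpc-1.3 is known to promote the male set.

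The study asked what sperm brings to the zygote. Small RNA was sequenced after 5' polyphosphatase treatment from sperm of fog-2(q71) males, whose sperm was filtered and activated with pronase, and from oocytes of N2 hermaphrodites collected by mouth pipette. It was also sequenced from sorted 1-cell hybrid embryos with CB4856 fathers, whose mothers are given as fem-1(hc17ts)/TX189(OMA-1::GFP); another library came from 1-cell embryos labelled TX189(OMA-1::GFP), titled as a second replicate although its strain differs. The last 2 libraries came from whole worms of the Hawaiian strain CB4856 and of the maternal strain, titled N2 but with a strain field that names fem-1(hc17ts)/TX189(OMA-1::GFP). Worms were grown at 24 C. The sex and age of the worms are not labelled, the sperm came from another strain than the hybrid's father, and fem-1(hc17ts) is a temperature-sensitive allele that prevents hermaphrodites from making sperm at restrictive temperature. Each group had 1 small RNA library, so no difference between these libraries has a replicate check or a p-value. Intervals below are exact Poisson intervals at 95% and cover counting error only. Poly(A) mRNA was sequenced from whole worms titled CB4856 and N2_background, and from sperm of fog-2 and of CB4856. The CB4856 sperm came as a low-purity library and a high-purity library titled as pronase treated. mRNA of hybrid embryos was sequenced after poly(A) selection and after rRNA depletion.

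The libraries held 469539 sense reads at 21U loci in sperm, 113363 in oocytes, 52651 in hybrid embryos, 292904 in TX189 embryos, 296320 in CB4856 worms and, for worms of the maternal strain, 599786. One read was thus worth 2.13 RPM in sperm, 8.82 in oocytes, 18.99 in hybrid embryos, 3.41 in TX189 embryos, and 3.37 in CB4856 worms against 1.67 in maternal-strain worms. A count of 0 in the hybrid library allows up to 57.0 RPM, against 10.2 in the TX189 library.

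The TX189 embryo library stood apart from its label in its 21U profile. Over 4595 loci at 25 RPM or more in any library, its levels had a Spearman rho of 0.724 with sperm, 0.223 with oocytes and 0.221 with hybrid embryos, while hybrid embryos had 0.785 with oocytes. These correlations are across loci that share libraries and are a description. With the 430 loci left out, rho between TX189 embryos and sperm was 0.668 over 4165 loci. Other small RNAs of the same library differed among themselves in this. Antisense reads over exons of 7969 genes had a rho of 0.839 with oocytes, 0.802 with hybrid embryos and 0.585 with sperm. Over 147 mature miRNAs its rho was 0.685 with sperm, 0.626 with oocytes and 0.469 with hybrid embryos. The miR-35 to miR-42 family, abundant in oocytes and early embryos, summed to 207668 RPM of mature miRNA sense reads in TX189 embryos, 218046 in hybrid embryos and 283992 in oocytes, against 1555 in sperm. The share of snoRNA sense reads among all class-table reads was 20.2% in hybrid embryos and 0.0501% in TX189 embryos, and 0.181% in sperm and 4.57% in oocytes, and its part in the 21U results was not tested. The sperm library also held microRNAs of somatic tissue, with 19895 RPM of mature miRNA sense reads for miR-1 of muscle, 8509 for let-7 and 318 for lin-4, against 118, 376 and 58.8 in oocytes. The neuronal miR-124 was at 0 in sperm, 3.92 in oocytes and 217 in hybrid embryos. Their part in the 21U levels was not tested.

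In sperm the 430 loci took up most of the 21U signal, and beyond the germ cells they were prominent in TX189 embryos and scarce in hybrid embryos. They held 81.5% of the 21U sense signal in sperm and 2.28% in oocytes, which is the contrast that chose them. In hybrid embryos they held 2.73% (interval 2.59 to 2.87), against 67.3% (67.0 to 67.6) in TX189 embryos. In CB4856 worms they held 24.9% (24.7 to 25.1), against 20.5% (20.4 to 20.6) in maternal-strain worms. In whole worms and other bulk samples, fewer cells of a type and less RNA per cell cannot be told apart. The shares of the oocyte-biased loci ran the other way in embryos, with 72.0% in hybrid embryos and 8.59% in TX189 embryos. Among worms, the oocyte-biased loci held 27.9% in the CB4856 strain and 30.2% in the maternal strain. Loci shared by the germ cells stayed between 6.44% and 11.95% in all 6 libraries.

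**Figure D1:**
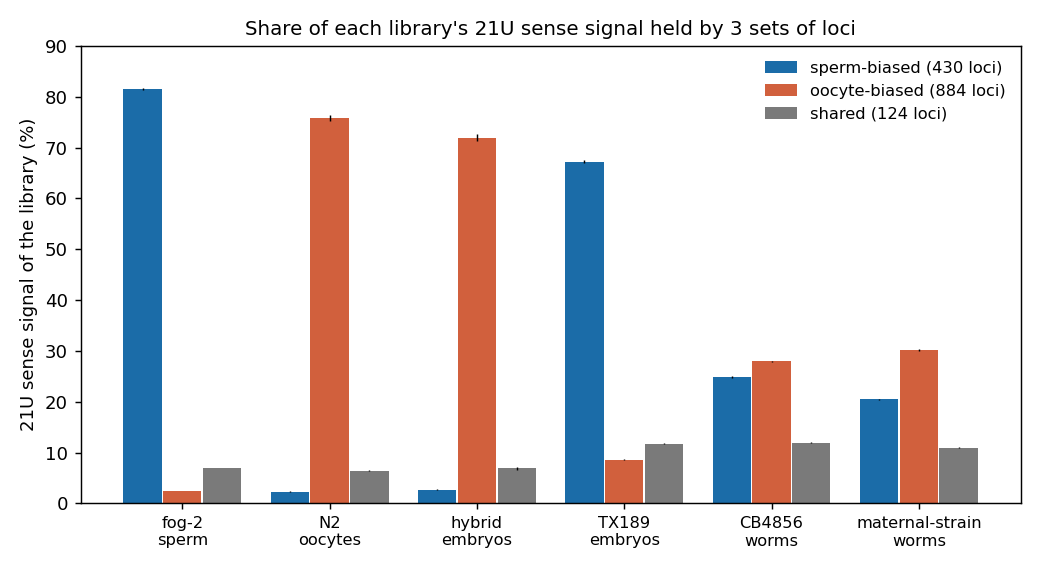
Percent of each library's 21U sense signal held by the sperm-biased, oocyte-biased and shared loci, 1 library per group; whiskers are 95% exact Poisson intervals of the reads. Sperm-biased loci held 81.5% in sperm, 2.28% in oocytes, 2.73% in hybrid embryos, 67.3% in TX189 embryos, 24.9% in CB4856 worms, and 20.5% in worms of the maternal strain.

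The typical member followed the same order as the sum. The median member had 312 RPM in sperm and 17.6 in oocytes, by choice. It had 18.99 RPM in hybrid embryos and 102 in TX189 embryos, and 89.4 in CB4856 worms against 36.7 in maternal-strain worms. The median over all 12120 loci was 0 in sperm, oocytes and both embryo libraries, and 1.69 in CB4856 worms against 1.67 in maternal-strain worms. Of the 430 loci, 278 had a read in hybrid embryos and 427 in TX189 embryos, and 405 had one in CB4856 worms against 412 in maternal-strain worms. A level of 25 RPM or more was reached by 179 in hybrid embryos and by 368 in TX189 embryos, and by 316 in CB4856 worms against 256 in maternal-strain worms. Of all 12120 loci, 4877 had a read in hybrid embryos and 4444 in TX189 embryos, and 6382 in CB4856 worms against 7198 in maternal-strain worms. At 25 RPM or more there were 2864 in hybrid embryos and 1447 in TX189 embryos, and 2262 in CB4856 worms against 2179 in maternal-strain worms. Since 1 read in the hybrid library is worth 18.99 RPM, levels under it came there only from fractions of shared reads.

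**Figure D2:**
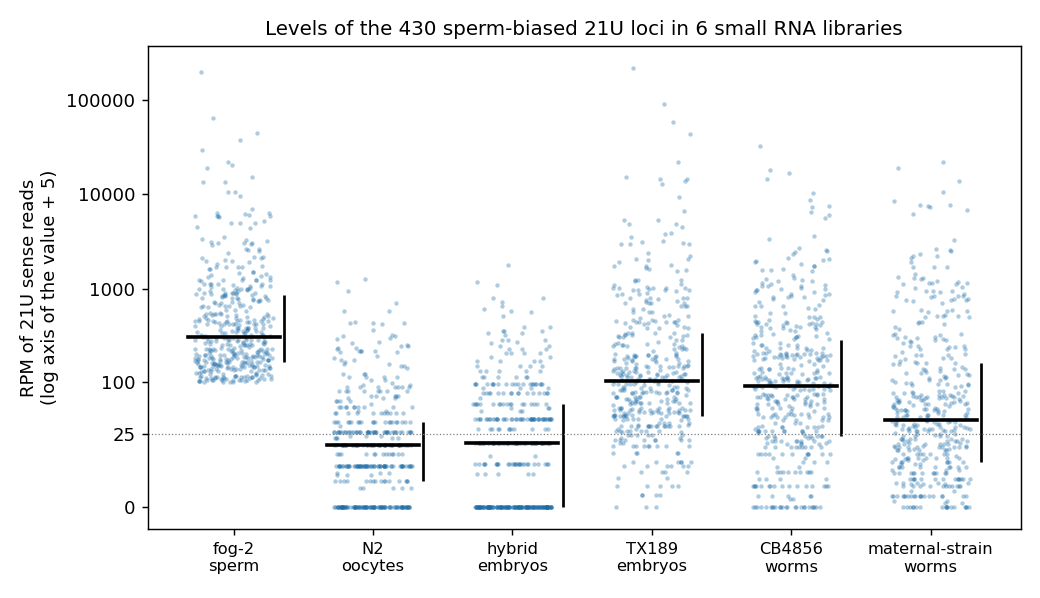
Level of each of the 430 sperm-biased loci in each library (points, RPM of 21U sense reads on a log axis of the value plus 5), with the median (horizontal bar) and the quartiles (vertical bar); the dotted line is the floor of 25. Medians were 312 in sperm, 17.6 in oocytes, 18.99 in hybrid embryos, 102 in TX189 embryos, 89.4 in CB4856 worms against 36.7 in maternal-strain worms.

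Signal was concentrated in few loci, and which loci led differed between libraries. In sperm 7 members held 50% of the members' signal, and in TX189 embryos 3 did. It took 25 members in oocytes and 25 in hybrid embryos, and 10 in CB4856 worms against 9 in maternal-strain worms. The 10 members with the most sperm signal made up 45.8% of the sperm library and 0.339% of the oocyte library. The same 10 held 0.361% in hybrid embryos and 41.6% in TX189 embryos, and 3.86% in CB4856 worms against 3.31% in maternal-strain worms. The other 420 members held 2.37% of the hybrid embryo library and 25.7% of the TX189 embryo library. They held 21.1% in CB4856 worms, and 17.2% in worms of the maternal strain.

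The leading locus in sperm, deposited as 21UR-5503_r0_m1_0, had 193247 RPM there (interval 191990 to 194510) and 441 in oocytes. It had 665 RPM in hybrid embryos (463 to 925, from 35 reads) and 58524 in TX189 embryos (57651 to 59407). Both worm libraries were low, with 1941 in CB4856 worms against 2116 in maternal-strain worms. The second, 21ur-2917, was higher in TX189 embryos than in sperm: 63501 RPM in sperm and 291 in oocytes, 361 in hybrid embryos and 215842 in TX189 embryos, and 8653 in CB4856 worms against 7674 in maternal-strain worms. The third, 21ur-2822, had 44297 RPM in sperm and 953 in oocytes, 798 in hybrid embryos and 89750 in TX189 embryos, and 6024 in CB4856 worms against 7648 in maternal-strain worms. These 3 loci alone thus set most of the members' signal in TX189 embryos. In all, 45 of the 430 members were higher in TX189 embryos than in sperm. The sperm level was exceeded by 71 members in CB4856 worms, against 52 in maternal-strain worms. A high sperm level chose the members, so these counts are a description only. No such counts were made over all 21U loci.

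Some other leading members had at most 297 RPM in either worm library. 21ur-2052 had 37812 RPM in sperm and 247 in oocytes, 228 in hybrid embryos and 2086 in TX189 embryos, and 256 in CB4856 worms against 28.3 in maternal-strain worms. 21ur-116 had 29295 RPM in sperm and 88.2 in oocytes, 76.0 in hybrid embryos and 12776 in TX189 embryos, and 297 in CB4856 worms against 273 in maternal-strain worms. Both were therefore among the strongest loci of sperm and minor in whole worms. 21UR-7645_r0_m1_0 had 22096 RPM in sperm and no oocyte read. Its level was 37.99 in hybrid embryos (2 reads) and 5377 in TX189 embryos, and 199 in CB4856 worms against 70.0 in maternal-strain worms. 21UR-14559_r0_m1_0 and 21UR-6204_r0_m1_0 carried identical values in every library: 13603 RPM in sperm and 0 in oocytes, 0 in hybrid embryos and 3000.98 in TX189 embryos, and 235 in CB4856 worms against 31.7 in maternal-strain worms. Loci with identical values were counted separately, and whether they share a sequence was not tested. In all, 70 members fell into 33 groups with identical values, which left 393 distinct profiles, and 363 members had whole reads in sperm.

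The remaining leaders had at least 597 RPM in each worm library. 21ur-194 had 20397 RPM in sperm and 450 in oocytes, 722 in hybrid embryos and 14558 in TX189 embryos, and 18197 in CB4856 worms against 13930 in maternal-strain worms, so that the worm libraries came close to sperm. 21ur-4425 had 18833 RPM in sperm and 326 in oocytes, 209 in hybrid embryos and 9392 in TX189 embryos, and 1539 in CB4856 worms against 597 in maternal-strain worms. 21ur-66 had 15345 RPM in sperm and 591 in oocytes, 513 in hybrid embryos and 4848 in TX189 embryos, and 1215 in CB4856 worms against 710 in maternal-strain worms. 21ur-1490 had 10670 RPM in sperm and the highest oocyte level of any member, 1279. It had 1197 in hybrid embryos and 43239 in TX189 embryos, and 3371 in CB4856 worms against 2373 in maternal-strain worms.

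**Figure D3:**
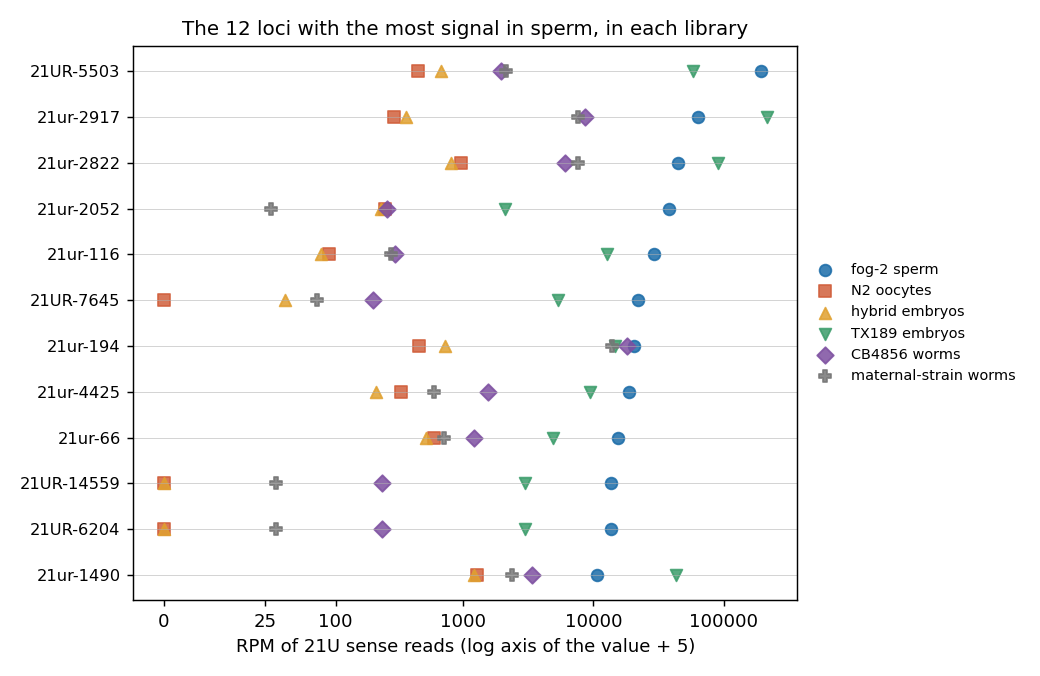
The 12 loci with the most sperm signal (rows) in each of the 6 libraries (symbols), in RPM of 21U sense reads on a log axis of the value plus 5; the common ending of the 21UR names is left off. Hybrid embryos lie near oocytes, while TX189 embryos lie above both at each of these loci and exceed sperm at 21ur-2917, 21ur-2822 and 21ur-1490.

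The 6 leading members in CB4856 worms were the same 6 in maternal-strain worms, and their sperm levels spanned a wide range. 21ur-2917 and 21ur-194, given above, were also among the leaders in sperm. 21ur-4459 was the highest member in CB4856 worms with 32293 RPM, against 18857 in maternal-strain worms, and had 1352 in sperm. 21ur-5342 was the highest in maternal-strain worms, with 16658 RPM in CB4856 worms, 22158 in maternal-strain worms and 880 in sperm. 21ur-2710 had 14501 RPM in CB4856 worms against 10489 in maternal-strain worms, and 422 in sperm. 21ur-602, the highest member in hybrid embryos, had 1785 RPM there and 22069 in TX189 embryos, with 5980 in sperm and 1191 in oocytes. 21ur-2569 had 1102 RPM in hybrid embryos and 15162 in TX189 embryos, with 3237 in sperm and 582 in oocytes. 21ur-602 was also among the 6 leaders of the worm libraries, with 10475 RPM in CB4856 worms against 8623 in maternal-strain worms.

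The 5 members whose log2 profile over the 6 libraries was most like the summed profile were 21ur-3693, 21ur-228, 21ur-3766, 21ur-5025 and 21ur-4010, with Pearson r of 0.993 to 0.997 over 6 libraries. 21ur-228, for example, had 4939 RPM in sperm and 0 in oocytes, 0 in hybrid embryos and 2410 in TX189 embryos, and 216 in CB4856 worms against 203 in maternal-strain worms. Across the 430 members, rank order in sperm had a Spearman rho of 0.753 with TX189 embryos. Its rho was 0.401 with CB4856 worms, 0.430 with maternal-strain worms and 0.343 with hybrid embryos. With oocytes it was 0.419, but the rule bounds the sperm and oocyte levels of the members together, so this value is a description only. In hybrid embryos 152 members had no read and the median level equals 1 read, and in oocytes 98 members had no read. Ties and counting error thus weigh on the ranks in both, and their rho cannot be set beside those of deeper libraries. Ranks in the worm libraries had a rho of 0.830 with each other.

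At the edge of the rule, members just inside the minimum had 100 to 102 RPM in sperm, and 0 to 17.6 in oocytes, as 21ur-3534 did with 100 in sperm and 8.82 in oocytes. Loci just outside, such as 21ur-844, had 95.8 to 98.0 RPM in sperm and also 0 to 17.6 in oocytes. By ratio, 21ur-225 lay just inside with 863 RPM in sperm and 212 in oocytes, and 21ur-806 just outside with 705 in sperm and 176 in oocytes. The median member had a sperm level 8.97 times the larger of its oocyte level and the floor, 235 members reached 8 times and 20 reached 100 times. A minimum of 100 is 4 times the floor of 25, so the minimum itself removed no locus.

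Among embryos, many sperm-biased loci were far lower in the hybrid library than in the TX189 library, and hardly any were higher. A locus was called higher or lower when it was at least 4 times the larger of the other library's value and 25 RPM. Of 428 members with a read in either embryo library, 1 was called higher in hybrid embryos and 165 (38.6%) lower. Over all 6357 loci with a read in either library, 14.0% were called higher and 3.98% lower. A call of lower needs at least 100 RPM in TX189 embryos, so the shares called lower depend on level, and all loci include the members. Loci at 25 RPM or more in either library were therefore split by mean level over the pair. At 1000 RPM or more, 96.9% of 32 members were called lower, against 29.3% of all 140 loci. Between 100 and 1000 RPM it was 69.9% of 133 members, against 15.2% of all 923 loci. Under 100 RPM it was 18.8% of 218 members, against 3.22% of all 2238 loci. Among the 883 oocyte-biased loci 639 were called higher and 2 lower. The median log2 ratio of hybrid to TX189 embryos, on values plus 5 RPM, was -2.84 over the 383 members at 25 RPM or more in either library and 2.35 over all 3301 such loci. Scaling to 1 sum per library ties these directions together, since a few loci with very high levels in TX189 embryos lower the level of all others there. Scaled to the reads of all class tables, 224 members (52.3%) were called lower and 0 higher, against 6.32% and 9.01% of all loci. With the 10 members strongest in sperm left out of the 21U sum, a scaling chosen after seeing the data, 235 were called lower and 0 higher.

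The 165 members lower in hybrid embryos had a median of 18.99 RPM there (0 to 1785) and 440 in TX189 embryos (102 to 215842), and 59 of them had no read in hybrid embryos. Besides the loci named above they included 21ur-2761, with 0 RPM in hybrid embryos and 13895 in TX189 embryos, 5929 in sperm and no oocyte read. The single member called higher was 21ur-5081, with 171 RPM in hybrid embryos (78.2 to 324, from 9 reads) and 27.3 in TX189 embryos (11.8 to 53.8, from 8 reads). Its calls rest on so few reads that the intervals allow a ratio under 4.

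**Figure D4:**
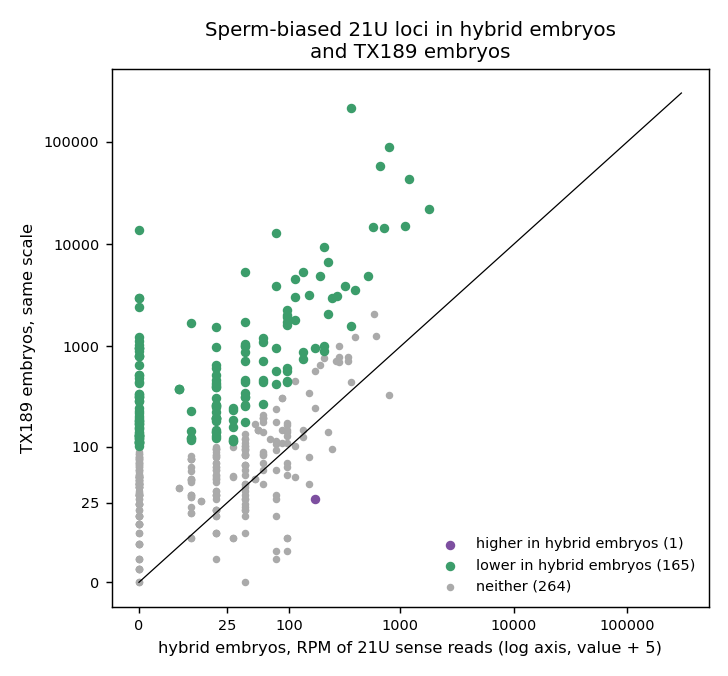
Level of each sperm-biased locus in hybrid embryos (horizontal) and TX189 embryos (vertical), in RPM of 21U sense reads on log axes of the value plus 5; the line marks equal levels. The 165 loci called lower in hybrid embryos lie above the line up to 215842 RPM in TX189 embryos, and the single locus called higher lies below it.

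Loci with no oocyte read were nearly absent from hybrid embryos and present in TX189 embryos. Of the 430 members, 98 had no oocyte read, which allows up to 26.5 RPM in oocytes, and they held 10.5% of the sperm library's 21U signal. In hybrid embryos 26 of the 98 had a read, 32.2 reads in sum, or 0.0611% of its 21U signal (interval 0.0416 to 0.0858). In TX189 embryos 97 of the 98 had a read and they held 3.99% (3.92 to 4.07). The 98 loci held 2.09% in CB4856 worms (2.04 to 2.14) against 1.68% in maternal-strain worms (1.65 to 1.71), where 21ur-1 was the highest of them in both. That locus had 7617 RPM in CB4856 worms against 7553 in maternal-strain worms, and 153 in sperm. One member was higher in hybrid embryos than in sperm: 21ur-2152, with 798 RPM in hybrid embryos (575 to 1078, from 42 reads), 335 in TX189 embryos, 503 in sperm (441 to 571) and 17.6 in oocytes. As the only such member of the 430 it was singled out by these values. With 1 library per group the difference was not tested.

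In whole worms, sperm-biased loci tended to be higher in CB4856 worms than in maternal-strain worms when each library was scaled to its 21U sum. Of 424 members with a read in either worm library, 44 (10.4%) were called higher in CB4856 worms and 14 (3.30%) lower. Over all 8183 loci, 1.12% were called higher and 1.66% lower, and among 851 oocyte-biased loci 2 were called higher and 33 lower. The median log2 ratio was 1.12 over the 329 members at 25 RPM or more in either worm library, with 265 above 0, and 0.11 over all 2665 such loci. The split of calls depended on the scaling. The 21U loci made up 13.3% of class-table reads in CB4856 worms against 24.0% in maternal-strain worms. Scaled to the reads of all class tables, 7 members were called higher and 21 lower, against 24 (0.293%) and 237 (2.90%) of all loci.

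The 44 members called higher had a median of 202 RPM in CB4856 worms (101 to 1161) against 31.7 in maternal-strain worms (3.33 to 263). 21ur-1992 had the highest CB4856 level of them, 1161 RPM in CB4856 worms against 263 in maternal-strain worms, and 5861 in sperm. 21ur-310 had the largest ratio to the larger of the other value and 25 RPM, with 267 RPM in CB4856 worms against 21.7 in maternal-strain worms. 21ur-2052, a leader in sperm, was also among them. By level, the median log2 ratio was 1.29 for 152 members with a mean under 100 RPM over the pair, against 0.18 for all 1604 such loci. It was 1.08 for 137 members between 100 and 1000 RPM, against 0.08 for all 863 such loci. It was 0.28 for 40 members at 1000 RPM or more, against -0.0036 for all 198 such loci. In the last group 0 members were called higher and 2 lower (5.0%), where 5 and 10 (5.05%) of all loci were.

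The members lower in CB4856 worms included some with no read there. 21ur-3292 had 0 reads in CB4856 worms against 1500 reads (2501 RPM) in maternal-strain worms. A count of 0, taken as up to 3 reads, allows 10.1 RPM in CB4856 worms, a bound at least 247-fold lower in aligned reads. It covers counting error only. Whether reads of the CB4856 strain align equally well at these loci was not tested, so a lower level is not shown. 21ur-3292 was present in every other library, with 3114 RPM in sperm, 370 in oocytes, 228 in hybrid embryos and 6719 in TX189 embryos. 21ur-4402, 21UR-6101_r0_m1_0, 21ur-4807 and 21ur-483 also had 0 reads in CB4856 worms. By the same bound they were at least 24.7-fold, 22.7-fold, 16.3-fold and 9.88-fold lower in aligned reads. 21ur-4838 had 138 RPM in CB4856 worms against 6172 in maternal-strain worms, and 21ur-628 had 1 read in CB4856 worms against 507 in maternal-strain worms. Most loci singled out among the called ones, such as 21ur-3292, 21ur-1992, 21ur-310, 21ur-2761 and 21ur-5081, were picked after their values were seen, as was 21ur-1. In all, 25 members had no read in CB4856 worms, 18 had none in maternal-strain worms, and 6 had none in either.

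**Figure D5:**
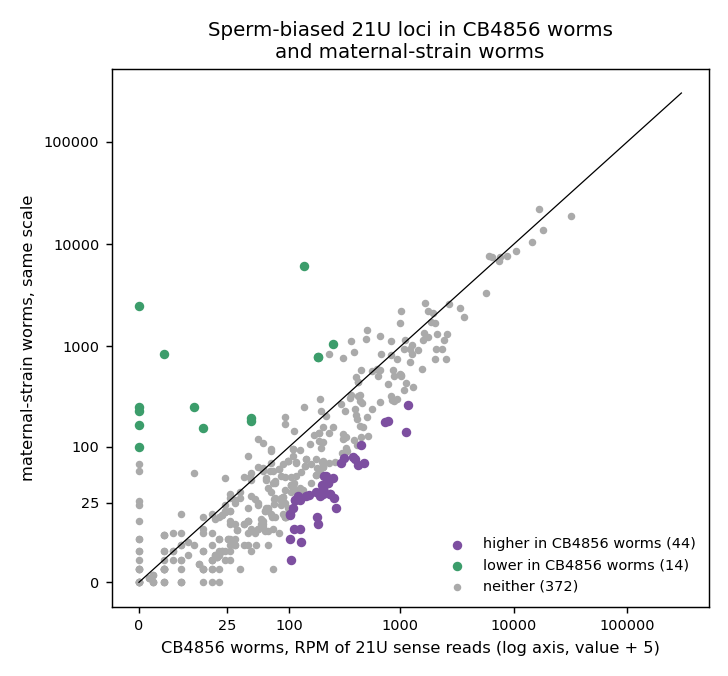
Level of each sperm-biased locus in CB4856 worms (horizontal) and maternal-strain worms (vertical), in RPM of 21U sense reads on log axes of the value plus 5; the line marks equal levels. The 44 loci called higher in CB4856 worms lie below the line between 101 and 1161 RPM, and 5 of the 14 called lower have no CB4856 read.

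The mRNA libraries gave the sperm content of CB4856 and maternal-strain worms, measured in other samples. The maternal-strain worms are titled N2_background there. Summed over 45 sperm marker genes, mostly major sperm proteins, CB4856 worms had 5231, 5231 and 5242 RPKM, and maternal-strain worms had 47.0, 42.8 and 42.2 RPKM, with 5 to 9 markers at 0. Summed over 9 oocyte markers, CB4856 worms had 7862 to 8017 RPKM and maternal-strain worms 9974 to 10130 RPKM. In the small RNA libraries, sperm-biased 21U loci held 24.9% of the 21U signal of CB4856 worms, against 20.5% of that of maternal-strain worms. The part of sperm content in the 21U difference was not tested, and the sperm marker difference moves with strain.

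Genes of the 21U pathway were compared between the same worm strains. Of 22 listed genes 20 were in the table and all were tested; tofu-3 and pics-1 were not found under these names. By limma with Benjamini-Hochberg adjustment over 11035 genes, 1 was called higher in CB4856 worms and 0 lower, where 13.3% of all genes were called higher and 1.62% lower. The median log2 difference of the 20 genes was -0.27, against 0.03 over all genes. At an unadjusted p under 0.05, prg-2 and henn-1 had negative log2 differences of -0.82 and -0.77 and snpc-1.3 a positive one.

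The called gene was snpc-1.3, the male-germline SNAPc paralogue. It had 1.39, 1.73 and 1.63 RPKM in CB4856 worms, against 0.178, 0.339 and 0.322 RPKM in maternal-strain worms. Averaging libraries 1 and 2 as 1 sample, it was at 1.60 ± 0.049 RPKM in CB4856 worms against 0.290 ± 0.045 RPKM in maternal-strain worms (SD, n = 2 samples each), a log2 difference of 1.01 ± 0.19 (SE) on the log2(RPKM + 1) scale with adjusted p = 0.00952 by limma. The gene sits at the edge of the threshold and at low level. The call was lost with a pseudocount of 5, with median-centred values and when any 1 of the 4 samples was left out, where limma's adjusted p ranged over 0.0605 to 0.0836. In sperm it was much more abundant, at 23.0 RPKM in high-purity, pronase-treated CB4856 sperm, 26.0 in low-purity CB4856 sperm and 23.7 in fog-2 sperm. In hybrid embryos it was at 5.74, 5.06 and 8.42 RPKM after poly(A) selection and at 3.23, 2.95 and 3.53 RPKM after rRNA depletion (RiboMinus).

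None of the most abundant pathway genes passed the test. prg-1, the Piwi Argonaute that binds 21U-RNAs, was at 228 ± 7.40 RPKM in CB4856 worms against 272 ± 3.48 RPKM in maternal-strain worms (SD, n = 2 samples each; limma adjusted p = 0.613). Its paralogue prg-2 was at 117 ± 3.36 RPKM in CB4856 worms against 208 ± 1.71 RPKM in maternal-strain worms, a log2 difference of -0.82 (limma adjusted p = 0.125). The fit shares the spread of a gene over worm and embryo groups, so the worm SDs alone do not set these p-values. In poly(A) libraries of hybrid embryos prg-2 had 17.2, 17.5 and 9.22 RPKM. ife-3 and erh-2, both of the PETISCO complex that processes 21U precursors, were at 284 and 98.6 RPKM in CB4856 worms, and 313 and 102 RPKM in maternal-strain worms. tofu-6, of the same complex, had 87.8 RPKM in CB4856 worms against 108 in maternal-strain worms, and tofu-5 had 44.8 RPKM in the CB4856 strain and 51.4 in the maternal strain. The trimming nuclease parn-1, named after its values were seen, had 33.8 to 37.6 RPKM in the 3 sperm libraries and 6.33 to 7.39 RPKM in CB4856 worms. Library differences between sperm and worms were not tested here.

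Position on the genome was described with RefSeq WBcel235 names. Of the 430 members, 291 carried a 21ur name that matched RefSeq, and all 291 stood on chromosome IV, as did all 5105 loci of the table that matched in this way. The other 139 carried names of another form. If these are matched to RefSeq by their number alone, 138 stood on chromosome IV and 1 elsewhere, against 6558 on IV and 452 elsewhere for the 7010 loci matched so over the whole table; whether the numbers are the same series in both was not tested. Of the 291, 55 (18.9%) had another member as the next matched 21U locus along the chromosome, in runs of up to 3. Some neighbours in these runs had identical values, such as 21ur-2999 and 21ur-3326 with 387 RPM each in sperm. Such loci enter a set together, and the neighbour counts here were not corrected for it. Among the 633 matched oocyte-biased loci, 235 (37.1%) had one of their own as neighbour, in runs of up to 7, but with 12.4% of all ordered loci in that set against 5.70% in the sperm-biased set. Within the span of a protein-coding gene lay 92 members (31.6%), against 1793 (35.1%) of all matched loci, and they fell in 65 genes with at most 3 members each. A run of 3 lay within soc-2: 21ur-1146, 21ur-2878 and 21ur-3717, with 2151, 452 and 179 RPM in sperm. 21ur-2917 lay in Y37A1A.4, 21ur-116 in C02B10.3 and 21ur-4425 in atln-2. Whether a locus and its host gene lay on the same strand was not examined.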

How the data were processed

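BWA was the aligner, per the submitters' processing notes. Its version, the genome build and the annotation are not given in the sources used here. The deposited class tables, made by the authors, hold a signal whose values are reads times 1 constant per library, with fractions for reads shared between places. The deposited miRNA sense columns hold RPM, and the deposited mRNA table holds RPKM. Sperm and embryo columns were matched by title. Columns of oocytes and worms were matched by elimination, and 8 columns of each small RNA file that fit no sample were left out. Whole repeated rows were dropped.

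Each 21U sense column was scaled to a sum of 1000000 (RPM in the text), with NA as 0. The deposited signal was divided by the value of 1 read, the most frequent value, for reads; whole means within 0.001. Log2 ratios used values plus 5. The members and gene lists were chosen with earlier results of these data known. On simulated reads with 200 loci raised in sperm, the rule was tested before use.

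mRNA was tested with limma 3.58.1 (R 4.3.3, trend) on log2(RPKM + 1), for 11035 genes that reached RPKM 1 in 3 or more of the 12 replicated libraries, in 1 fit of 4 groups, called at adjusted p under 0.05 and absolute log2 difference of at least 1. Over the groups, replicates 1 and 2 had a mean dispersion of 1.925 to 2.032 on single reads, above the 1 of read sampling. It would be 0.962 to 1.02 if a fragment gave 2 reads. This was assumed and not shown, as only 53.0% to 58.4% of read counts were even. On this assumption the pair was averaged as 1 sample, so n = 2. Nothing says the samples came from separate cultures. The p-values thus measure only the spread between samples, pooled over the 4 groups, embryos included. Named loci were the 12 highest in sperm, the 6 highest in each embryo and worm library, 6 nearest each side of a threshold and the 5 most like the summed profile; pathway genes named were those called and the 6 with the highest mean RPKM in worms. Python 3.11.15, numpy 2.4.6, pandas 2.3.3 and scipy 1.17.1 were used.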

Additional observations from a re-analysis of the deposited data

Results flagged for a closer look

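Antisense reads at the sperm-biased loci lay outside the comparisons. In sperm 42 antisense reads (interval 30.3 to 56.8) fell at 11 of the 430 loci, 0.0110% of their sense and antisense reads, against 945 reads in oocytes at 19 loci, or 26.8%. The percentages include the 382814 sense reads in sperm and 2581 in oocytes at these loci. Those sense levels chose the loci, so the contrast of the percentages between sperm and oocytes carries the choice. The antisense reads in sperm were noted because they exceed what a count of 0 allows. In hybrid embryos there were 357 antisense reads, 19.9% of the reads at these loci, and in TX189 embryos 35, or 0.0178%. CB4856 worms had 13.5 and maternal-strain worms 15.5. One locus, 21ur-551, held 867 of the 945 oocyte reads, 330 of the 357 hybrid embryo reads and 31 of the 35 TX189 embryo reads. In sperm the locus with the most was 21ur-3503, with 11 reads. Over all 12120 loci, antisense reads were 0.795% of the reads in sperm and 6.01% in oocytes.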

How the results depend on the processing

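The set held 430 loci, and 557 with scaling to all class tables, 282 with a floor of 50 or a minimum of 200, and 235 with a ratio of 8; with a floor of 10 or a minimum of 50 it held 430, since the other condition then decides. Limited to whole reads, without the 10 members with most sperm signal, and with a ratio of 8, the share was 2.57%, 2.37% and 1.53% in hybrid embryos, 65.8%, 25.7% and 58.7% in TX189 embryos, 24.1%, 21.1% and 12.2% in CB4856 worms and 19.8%, 17.2% and 9.50% in maternal-strain worms. Members called higher in CB4856 worms (44) numbered 69 with a floor of 10, 24 with a floor of 50, 149 at 2 times and 7 with scaling to all class tables; those called lower (14) numbered 9 with a floor of 50 and 26 at 2 times. Members called higher in hybrid embryos (1) numbered 7 with a floor of 10, 13 at 2 times, and 0 with a floor of 50, with scaling to all class tables and without the 10 strongest members in the 21U sum; those called lower (165) numbered 256 at 2 times. The last scaling, and counting identical loci once, were chosen after seeing the data. Of the pathway, 1 gene was called higher, and 0 with a pseudocount of 5, with median-centred values and in each leave-one-out fit (0 to 0), where the lone sample is assumed to vary like the other groups. With the replicate block the count was also 1 higher and 0 lower; the deviations of samples with the same number had r = 0.726 between the worm groups, which have only 2 samples each. No paired analysis was possible for small RNA because each group has 1 library. The planned count of an upstream motif was not run, since sequences were not used here. The cause of the shifts was not tested. The hybrid embryo library, with 52651 reads at 21U loci, limits what can be seen there.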
